A study of Mus musculus with 24 samples.

Results

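RNA from cells labelled as naive tumour-associated macrophages (TAM) was compared with RNA from naive marrow macrophages (M0) on 7 of the 24 single-colour Agilent arrays of the series, 3 labelled TAM naive and 4 labelled M0 naive. The 7 were chosen by label alone. TAM naive replicate 2 was left out because, per its label, the submitters had dropped it for low RNA concentration and quality. All mice were C57BL/6 males aged 10 weeks without sepsis. The TAM were isolated from tumours on a 70/30 Percoll gradient, and the cells that adhered within 1 hour were kept; no sort by a surface marker and no tumour line was named in the labels. The M0 cells were adherent marrow progenitors grown for 7 days in RPMI with 20% L929 supernatant, a source of macrophage colony-stimulating factor, and 10% serum, with no polarizing agent. Per the series' design text, the best samples of several experiments were chosen by absorbance ratios, so that p-values measure the spread between chosen samples, and a sample's animal and experiment are not given. For comparison, 4 TAM and 4 M0 arrays of mice of the same strain, sex and age, isolated 14 days after sepsis was induced, served as a second contrast that shares no array with the first.

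Macrophages in tumours arise largely from blood monocytes and lie among cancer cells, fibroblasts, vessels and lymphocytes. They depend on the receptor for macrophage colony-stimulating factor, take up dead cells, digest them in lysosomes, and can present antigen. Marrow macrophages grown in vitro are a nearly pure population and commonly serve as the unstimulated reference. Whole-sample RNA cannot separate fewer cells of a type from less RNA per cell, and every list below is to be read with that limit.

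Values are levels on a log2 scale: each spot's processed intensity in log2, minus the 75th percentile of its array, so that 0 is the level of the 75th percentile. Per-array values are listed for TAM replicates 1, 3 and 4 and for M0 replicates 1 to 4, in that order. Differences are TAM minus M0 in log2 ± standard error of the limma fit, with n = 3 and n = 4 arrays, and a gene was called when its adjusted p was under 0.05. Between 62.0% and 66.7% of probes were well above background on the 7 arrays, no spot was saturated, and the number of arrays limits the precision. Pairs of TAM arrays correlated at 0.963 to 0.973, pairs of M0 arrays at 0.917 to 0.992, and pairs across the groups at 0.751 to 0.864. The lowest M0 pair was replicates 1 and 3. The 3 slides each held arrays of both groups.

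Of 30608 features tested, 10254 (33.5%) were called, 4519 (14.8%) higher and 5735 (18.7%) lower in TAM. Among the 17489 genes with a symbol, 42.4% were called, 18.3% higher and 24.1% lower, and the counts of list members below are to be read against these shares. The median difference was 0.03 over all features and -0.06 over genes with a symbol. The groups did not overlap in 39.7% of features, 17.2% higher and 22.5% lower. Without M0 replicate 3, 13652 features were called, of which 7282 were higher. Centring each array on its median moved the median difference to -0.32 and the share of calls that were higher from 44.1% to 30.5%.

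The label of the TAM arrays was checked against marker lists. Of 21 macrophage identity genes tested, 20 were above background on all 3 TAM arrays, and 20 were lower there than in M0. Of 24 melanocyte and melanoma genes tested, 24 were above background on all 3 TAM arrays and 21 were higher there. Of the 24, 15 were above background on all 4 M0 arrays and 7 on none. Those 7, and any other member above background on fewer than 3 M0 arrays, passed the filter through TAM alone. Their detection on all 3 TAM arrays was therefore fixed by it. The summed linear level of the macrophage list, in multiples of the array's 75th percentile, was 248 to 410 in TAM and 2340 to 2980 in M0; that of the melanocyte list was 1850 to 2480 in TAM and 24.9 to 26.9 in M0. The arrays labelled TAM naive therefore measured macrophage RNA together with RNA of pigment cell genes, and the name TAM is used below for the arrays so labelled. The part of these other cells in any difference named below was not tested. In the lists below too, genes above background on no M0 array passed the filter through TAM alone, which favours counts on the higher side. Among them were 6 of 25 chemokines, 4 of 32 T and NK cell, 4 of 22 endothelial and 3 of 12 cancer-testis and placental genes.

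**Figure D1:**
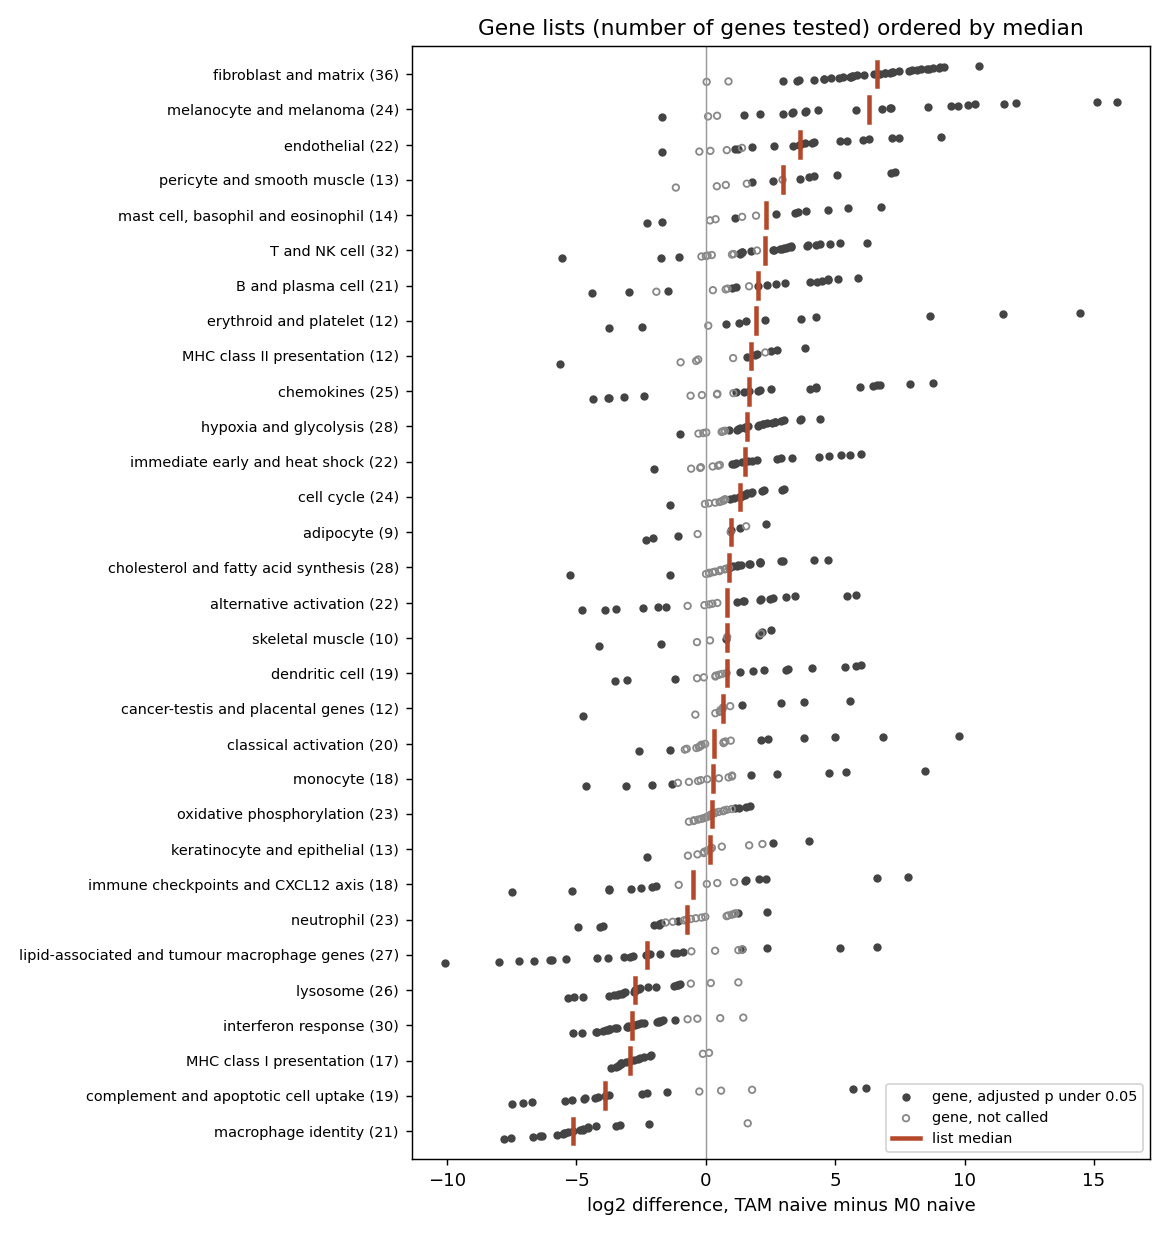
Log2 difference, TAM naive minus M0 naive (horizontal axis), of every tested gene of each list (rows, with the number of genes tested). Filled points were called, open points were not, and the bar is the list median; fibroblast (6.63) and melanocyte (6.31) lists lie farthest to the right and the macrophage identity list (-5.12) farthest to the left.

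Pigment cell genes were higher in TAM, with a median difference of 6.31. Melanin is made in melanosomes by tyrosinase and its relatives, under control of the factor MITF, which binds E-box sequences in the promoters of these genes. Dct, dopachrome tautomerase of the melanin pathway, was at 9.62, 9.47 and 9.76 in TAM and at -6.13, -5.86, -6.42 and -6.66 in M0, where no array was above background. It was at least 17900-fold higher (adjusted p = 2.54e-08), and the groups lay far apart. Tyrp1, the tyrosinase-related protein, was at 8.52, 8.54 and 8.91 in TAM and between -6.55 and -6.29 in M0, not above background there, and was at least 9210-fold higher (adjusted p = 1.89e-08).

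Pmel, which forms the melanosome's fibrils, was at 8.37, 8.25 and 8.79 in TAM against -3.14, -3.57, -3.31 and -4.03 in M0, a difference of 11.98 ± 0.28 (adjusted p = 1.02e-07). Mlana, a melanosomal protein, was at 7.78, 7.67 and 8.29 against -3.06, -3.56, -3.90 and -3.98, a difference of 11.53 ± 0.30. In both genes the lowest TAM array lay above the highest M0 array by a wide margin. Tyr itself, the rate-limiting enzyme, was at 1.24, 0.89 and 2.62 against -1.57, -1.68, -1.64 and -2.33, a difference of 3.39 ± 0.42 (adjusted p = 3.97e-04). Mitf was at 5.75, 6.01 and 6.56 in TAM and 3.82 to 4.20 in M0, a difference of 2.08 ± 0.26. Kit, a receptor of both melanocytes and mast cells, was higher by 3.86 ± 0.28. Ednrb, the endothelin receptor, was the list's called gene on the lower side, at -1.69 ± 0.25. Trpm1 was not called at the brightest of its probes (0.10), while the highest of its 4 probes differed by 11.16.

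The promoters of Dct and Tyrp1 are shown because both hold CATGTG, a core of the E-box that MITF binds, and were picked after a search of the promoters of named genes. Each is the 250 bases before the gene's start, from RefSeq on GRCm38.p6, written 5′ to 3′ on the gene's strand, with the motif or its reverse complement in capitals. Dct lies on the minus strand of chr14:118052247-118052496 and Tyrp1 on the plus strand of chr4:80833963-80834212.
Dct: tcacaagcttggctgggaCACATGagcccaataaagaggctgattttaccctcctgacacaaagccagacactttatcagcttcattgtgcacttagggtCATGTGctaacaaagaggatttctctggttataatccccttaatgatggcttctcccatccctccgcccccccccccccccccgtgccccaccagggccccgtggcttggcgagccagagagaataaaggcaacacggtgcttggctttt
Tyrp1: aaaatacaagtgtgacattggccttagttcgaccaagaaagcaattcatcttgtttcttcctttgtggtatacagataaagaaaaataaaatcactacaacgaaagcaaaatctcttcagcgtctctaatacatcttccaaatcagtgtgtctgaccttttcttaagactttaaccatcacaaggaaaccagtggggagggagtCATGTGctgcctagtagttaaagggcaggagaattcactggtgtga
The motif starts 232 and 150 bases before the start of Dct and 46 bases before that of Tyrp1. On either strand it was found in 7 of 16 promoters of the melanocyte list (43.8%), in 0 of 12 of the macrophage identity list and in 12.3% of all 32851 promoters. The longer TCATGTG, added later and overlapping the first, was in 6 of 16, in 0 of 12 and in 3.25%. A match describes the letters only. The 16 and 12 are the tested genes that had a promoter entry, of 25 and 24 genes in the lists. Each gave its first listed promoter, while the share over all promoters counts every entry. On mm9, the build of the array's annotation, the Dct probe lay at chr14:118412029-118412088 and the Tyrp1 probe at chr4:80497524-80497583.

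**Figure D2:**
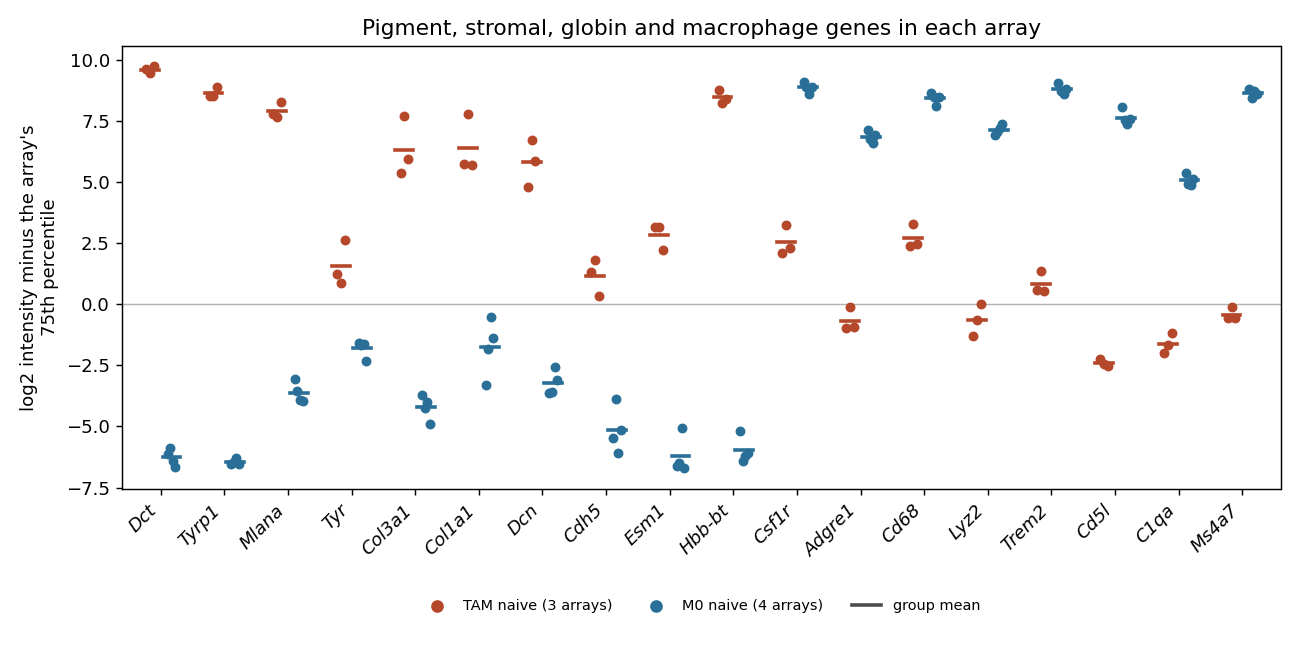
Log2 level minus the array's 75th percentile (vertical axis) of pigment, stromal, globin and macrophage genes in the 3 TAM naive and 4 M0 naive arrays; points are arrays and bars are group means. Dct lies at 9.47 to 9.76 in TAM and Cd5l at 7.39 to 8.09 in M0, and no gene shown has overlapping groups.

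Other genes with the largest higher values were not on any cell type list. Ptgds, which makes prostaglandin D2, was at 7.48, 7.60 and 7.87 in TAM and -2.60, -2.85, -3.12 and -3.50 in M0, a difference of 10.67 ± 0.27. Car6, a secreted carbonic anhydrase, was higher by 10.66 ± 0.34 and was above background on 1 of 4 M0 arrays, so its size is uncertain. Nedd4, a ubiquitin ligase, was higher by 10.44 ± 0.25 at the brighter of its probes and by 3.72 at the other. The brighter probe lay at -6.295 to -5.976 in M0, below the lowest level well above background on those arrays (-4.59 to -4.36). The size of its difference is therefore uncertain. The 2 of 4 M0 arrays above background for this gene were so at another probe. Gsta2, a glutathione transferase, was at least 1400-fold higher, and its near-identical relatives Gm10639 (11.72 ± 0.73) and Gm3776 (11.14 ± 0.65) were higher too; both were above background on 1 of 4 M0 arrays, so their sizes are uncertain, and probes of this family may share targets. Of 12 cancer-testis and placental genes tested, 4 were higher and 1 lower, with a median of 0.66. Lin28b, an RNA-binding protein of early development, was at -1.07, -1.10 and -0.95 in TAM and not above background in M0, and was at least 11.1-fold higher. Igf2bp1 was at least 3.98-fold higher, whereas its relative Igf2bp3 was above background in M0 only and at least 7.75-fold lower. Fmr1nb overlapped between the groups, at 1.87 to 2.40 in TAM and -0.77 to 2.41 in M0.

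Stromal genes were the other large block. Of 36 fibroblast and matrix genes, all above background on every TAM array, 34 were higher and 0 lower, with a median of 6.63. Of the 36, 14 were above background on all M0 arrays and 12 on none. Those 12, and any other member above background on fewer than 3 M0 arrays, passed the filter through TAM alone. Their detection on every TAM array was therefore fixed by it. The summed level of the list was 584 to 1760 in TAM and 5.93 to 8.73 in M0. Col3a1, a fibrillar collagen, was at 5.37, 7.70 and 5.95 in TAM and -4.89 to -3.71 in M0, where 2 of 4 arrays were above background, a difference of 10.55 ± 0.54 (adjusted p = 3.19e-06). TAM replicate 3 was the highest array. The same array was highest for Col1a1, which was at 5.74, 7.81 and 5.70 against -3.30, -1.84, -0.52 and -1.38 (8.18 ± 0.72), and for the proteoglycan Dcn, at 4.83, 6.74 and 5.89 against -3.61, -3.58, -2.55 and -3.09 (9.03 ± 0.47). Col6a3 was at least 231-fold and the growth factor receptor Pdgfra at least 14.1-fold higher.

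Endothelial genes were higher in 17 of 22 tested and lower in 1, with a median of 3.65. Esm1, a product of growing vessel tips, was at 3.18, 3.18 and 2.23 in TAM and -6.61, -6.51, -5.05 and -6.72 in M0, not above background there, and was at least 166-fold higher. Robo4, an endothelial guidance receptor, was at least 123-fold higher, and Tie1 at least 7.66-fold. Cdh5, the cadherin of vessel junctions, was at 1.32, 1.84 and 0.35 against -5.48, -3.87, -6.07 and -5.12, a difference of 6.30 ± 0.54. All but -3.87 lay below the lowest level well above background on the M0 arrays (-4.59 to -4.36), so its size is uncertain. Pecam1, which macrophages also carry, was at 0.18 ± 0.22 and Kdr, a receptor of vascular growth factor, at 0.82 ± 0.42; neither was called and both groups overlapped, though Kdr was called with quantile scaling (adjusted p = 0.0230) and without TAM replicate 1 (adjusted p = 0.0111). Among 13 pericyte and smooth muscle genes, 8 were higher and 0 lower. Of the 13, 4 were above background on no M0 array and passed the filter through TAM alone. Pdgfrb was at least 38.4-fold, Notch3 at least 36.1-fold and Rgs5 at least 10.1-fold higher, while Acta2, smooth muscle actin, was at 1.91, 3.07 and 1.62 against -1.39 to -2.09, a difference of 3.98 ± 0.37.

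Lists of muscle, fat and epithelium were mixed. Of 10 skeletal muscle genes tested, 4 were higher and 2 lower; the actin Acta1 was higher by 2.07 ± 0.32, and the troponin Tnni2 was at -1.28, -0.51 and -1.40 in TAM and 2.66 to 3.42 in M0 (-4.13 ± 0.30). Among 9 adipocyte genes, 3 were higher and 3 lower. Adipoq, the fat cell hormone, was not called (0.97 ± 0.40), and the lipid carrier Fabp4 was lower at -2.29 ± 0.30. Keratinocyte and epithelial genes gave 2 higher and 1 lower of 13. Krt14 (-0.07 ± 0.24) and Krt5 (-0.06 ± 0.31), the basal keratins, overlapped between the groups, and Cdh1 was at least 2.09-fold higher.

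Globin and heme genes of red cells were higher. Hbb-bt, an adult beta globin, was at 8.80, 8.24 and 8.40 in TAM and -5.21, -6.42, -6.22 and -6.08 in M0, and was at least 8150-fold higher. Hbb-b2 was at least 2430-fold higher, Hba-a1 differed by 11.48 ± 0.31 and Hba-a2 by 11.03 ± 0.26; globin copies are near-identical and their probes may share targets. Alas2, the first enzyme of heme synthesis in red cell precursors, was at 3.43, 2.28 and 2.51 and at least 152-fold higher. Across these genes TAM replicate 1 was the highest array. Of the 12 erythroid and platelet genes tested, 9 were higher and 2 lower, the latter being Pf4 (-3.74 ± 0.31), a platelet chemokine also made by marrow macrophages, and Treml1 (-2.47 ± 0.28).

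T and NK cell genes were higher in 22 of 32 tested and lower in 3, with a median of 2.30. Cd2, an adhesion receptor of T and NK cells, was at 1.12, 3.07 and 1.19 in TAM and -4.72, -4.07, -4.32 and -4.57 in M0, where 2 arrays were above background, a difference of 6.22 ± 0.47, and 2.53 at its other probe. Cd3e, a chain of the T cell receptor complex, was at 2.25, 3.06 and 2.73 against 1.24, 1.59, 1.14 and 1.43, a difference of 1.33 ± 0.26. Its M0 level was above background on all 4 arrays. Skap1, an adaptor of T cell adhesion, was at least 12.4-fold higher, and Cd8a was higher by 1.40 ± 0.35, a call lost without TAM replicate 1 (adjusted p = 0.0587) or 3 (adjusted p = 0.0613). On the lower side were Cd28 (-5.55 ± 0.36), at 4.09 to 5.11 in the M0 cultures, Cd247 (-1.73 ± 0.45) and Cd4 (-1.04 ± 0.31). The Cd4 call was lost without TAM replicate 1 (adjusted p = 0.112) or 4 (0.0548) and without M0 replicate 1 (0.0641), 2 (0.0926) or 4 (0.0767), and further with no filter on dim probes (0.0553), with the mean of all probes (0.127), with the slide as a block (0.0587) and with all groups in 1 fit (0.0863). The other Cd4 probe was at 0.12, so its direction is uncertain. The Cd247 call was lost without TAM replicate 4 (adjusted p = 0.0656) and with normexp background correction (adjusted p = 0.128), where the difference was -0.54. Summed over the T and NK genes, the level was 30.0 to 51.9 in TAM and 32.8 to 53.9 in M0, so that the ranges overlapped. The sum is weighted to its brightest members, and in M0 it includes Cd28 at 4.09 to 5.11. The list's median level was -1.21 to 0.00 in TAM and -3.05 to -2.35 in M0.

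B and plasma cell genes were higher in 13 of 21 tested and lower in 3, with a median of 2.02. Cd79a, the signalling chain of the B cell receptor, was at 0.61, 3.23 and 1.38 in TAM and -1.17 to -0.72 in M0 (2.73 ± 0.55). TAM replicate 3 was the highest array. The summed level of the list was lower in TAM, 30.6 to 90.0 against 101 to 131, while its median level was -0.31 to 1.15 against -2.90 to -1.43. Ms4a1, the B cell antigen CD20, differed by 4.48 ± 1.10, and without TAM replicate 3 its call was lost (adjusted p = 0.0581). Jchain, which joins secreted antibodies, was at 0.44, 0.77 and 1.03 and higher by 5.87 ± 0.49, a size that is uncertain because its M0 signal was near background. Fcrla was at least 15.5-fold higher. Blnk, an adaptor that macrophages also use, was lower at -4.37 ± 0.59, while Tnfrsf13b was at -2.95 ± 0.40 at its brightest probe and at 0.32 at the highest of its 3 probes, so its direction is uncertain.

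Macrophage identity genes were lower in TAM in 20 of 21 tested, with a median of -5.12, and within the 3 slides the list median was -4.65, -5.24 and -5.69. Csf1r, the receptor on which macrophages depend, was at 2.11, 3.24 and 2.30 in TAM and 9.10, 8.91, 8.63 and 8.89 in M0, a difference of -6.33 ± 0.31 (adjusted p = 2.46e-06), with its 3 probes between -6.54 and -0.80. Adgre1, the F4/80 antigen, was at -0.95, -0.11 and -0.93 against 7.16, 6.75, 6.61 and 6.94 (-7.53 ± 0.28). Cd68 was at 2.37, 3.29 and 2.48 against 8.67, 8.49, 8.12 and 8.51 (-5.73 ± 0.29). The groups did not overlap in any of these genes, and TAM replicate 3 was the highest TAM array in each. Lyz2, lysozyme M, was at -1.30, -0.65 and 0.01 against 6.93, 7.06, 7.21 and 7.40 (-7.80 ± 0.32). Itgam was the gene not called: its brightest probe was at 1.63, and the lowest of its 3 probes at -3.33.

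The largest falls included genes of lipid handling and of complement. Cd5l, a secreted scavenger protein, was at -2.25, -2.44 and -2.54 in TAM and 8.09, 7.53, 7.39 and 7.59 in M0, a difference of -10.06 ± 0.24 (adjusted p = 1.08e-07). Trem2, a lipid receptor of macrophages, was at 0.58, 1.38 and 0.54 against 9.08, 8.73, 8.62 and 8.83 (-7.99 ± 0.28). No array of one group came near the other. The promoters of both are shown because each holds GAGGAAG, a core that the myeloid factor PU.1 binds, and were picked after the same search; they are the 250 bases before the start on the plus strand, Trem2 at chr17:48346151-48346400 and Cd5l at chr3:87357631-87357880 of GRCm38.p6, with the motif's reverse complement in capitals.
Trem2: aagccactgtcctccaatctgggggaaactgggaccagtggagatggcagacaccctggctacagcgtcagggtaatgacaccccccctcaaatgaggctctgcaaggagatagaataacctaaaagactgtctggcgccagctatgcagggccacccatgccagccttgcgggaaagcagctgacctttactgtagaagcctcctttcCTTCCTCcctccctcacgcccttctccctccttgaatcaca
Cd5l: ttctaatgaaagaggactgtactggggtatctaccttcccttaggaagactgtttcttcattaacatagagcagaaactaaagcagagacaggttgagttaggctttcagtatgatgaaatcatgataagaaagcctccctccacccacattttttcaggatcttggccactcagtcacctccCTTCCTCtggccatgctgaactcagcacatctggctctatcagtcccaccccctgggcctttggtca
The motif starts 41 bases before the start of Trem2 and 67 before that of Cd5l. On either strand it was in 3 of 12 promoters of the macrophage identity list, in 3 of 16 of the melanocyte list and in 10.6% of all promoters. On mm9 the Cd5l probe lay at chr3:87174823-87174882 and the Trem2 probe at chr17:48491537-48491596.

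Of 27 lipid-associated and tumour macrophage genes tested, 19 were lower and 4 higher, with a median of -2.25. Spp1, osteopontin, often used to mark tumour macrophages, was at -0.21, 0.94 and 0.05 in TAM and 5.38, 5.45, 5.65 and 6.05 in M0 (-5.37 ± 0.33). Apoe, a lipid carrier, was at 6.01, 6.28 and 6.66 against 9.04, 8.60, 8.08 and 8.57 (-2.25 ± 0.29), and the growth factor Igf1 was lower at -7.21 ± 0.35, with its 5 probes between -7.33 and -1.44. Vegfc, a growth factor of lymphatic vessels, was on the higher side, at 0.99 or above on every TAM array and at least 56.1-fold.

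Complement and apoptotic cell uptake genes were lower in 14 of 19 and higher in 2, with a median of -3.89. C1qa, C1qb and C1qc, the chains of C1q, were lower at -6.70 ± 0.27, -7.05 ± 0.24 and -7.46 ± 0.30. Axl, an uptake receptor, was at -0.28, 1.55 and 0.64 against 3.25, 3.03, 2.39 and 2.86 (-2.24 ± 0.42), whereas its relative Tyro3 was at 1.85, 1.99 and 2.65 against -3.76, -3.77, -4.81 and -3.85 (6.21 ± 0.34) at the brighter of its probes and differed by 0.55 at the other. Serping1, the C1 inhibitor, was higher by 5.71 ± 0.46. C3 overlapped, at 4.72, 6.83 and 5.54 against 6.32, 6.04, 5.38 and 6.01 (-0.24 ± 0.47). Among the remaining genes with the largest falls, the membrane protein Ms4a7 was lower at -9.08 ± 0.23, Gpr162 at -7.67 ± 0.30, the SLAM receptor Cd84 at -7.08 ± 0.32 (-1.79 at its other probe), the myosin Myo1f at -6.91 ± 0.27 and Aoah, which inactivates lipopolysaccharide, at -6.91 ± 0.27. Npy was at -9.23 ± 0.39 with 1 of 3 TAM arrays above background.

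Lysosome genes were lower in 23 of 26 and higher in 0, with a median of -2.73, and all 26 were above background on every TAM array. Ctsd, an acid protease, was at 6.21, 6.34 and 6.57 in TAM and 9.63, 9.46, 9.45 and 9.35 in M0 (-3.10 ± 0.21). Lamp1, of the lysosome membrane, was lower at -1.93 ± 0.22, Ctsb at -3.44 ± 0.24, Psap at -5.30 ± 0.32 and Atp6v0d2, a subunit of the proton pump, at -5.07 ± 0.23. A single lysosome gene was called higher under quantile scaling, with all groups in 1 fit, and without TAM replicate 1 or M0 replicate 1.

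Interferon response genes were lower in 26 of 30 and higher in 0, with a median of -2.84; without M0 replicate 3, 1 was called higher. Irf7, a factor that amplifies interferon production, was at -2.75, -1.71 and -1.65 in TAM and 1.87, 1.79, 1.88 and 2.10 in M0 (-3.95 ± 0.31). Isg15, a ubiquitin-like modifier, was at 3.43, 3.99 and 3.17 against 4.74, 4.52, 4.69 and 4.96 (-1.20 ± 0.26). Oas3, which senses double-stranded RNA, was not above background in TAM and at least 34.5-fold lower, and Rtp4 was lower at -4.76 ± 0.33. MHC class I genes were lower in 15 of 17 and higher in 0, with a median of -2.91. B2m, the light chain of class I, was at 5.57, 6.44 and 6.11 against 8.85, 8.84, 8.68 and 8.83 (-2.76 ± 0.25). H2-K1 was lower at -2.91 ± 0.31 and the peptide transporter Tap1 at -3.67 ± 0.36, the latter above background on 2 of 3 TAM arrays.

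MHC class II genes went the other way, with 6 of 12 higher, 1 lower and a median of 1.76. H2-Ab1 was at 5.92, 7.75 and 6.61 in TAM and 4.72, 4.26, 3.67 and 4.25 in M0 (2.54 ± 0.44). H2-Eb1 was higher by 2.75 ± 0.39, H2-Oa, expressed in B cells, by 3.83 ± 0.59 and the class II chaperone Cd74 by 1.62 ± 0.41. The Cd74 call was lost with median centring (adjusted p = 0.0583), and the difference was 0.30 with TAM replicate 2 added. The summed level of the class II list, which includes Ctss, was 148 to 489 in TAM and 651 to 696 in M0. For H2-Ab1, H2-Eb1, H2-Oa and Cd74, TAM replicate 3 was the highest array. Ciita, the transactivator of these genes, was not called (1.06 ± 0.38) but passed without TAM replicate 4 (adjusted p = 0.0418) or M0 replicate 3 (adjusted p = 0.0166) and with all groups in 1 fit (adjusted p = 0.0396). Ctss, a lysosomal protease that trims the class II chaperone, was at 3.09, 4.42 and 3.40 against 9.22, 9.26, 9.34 and 9.21 (-5.62 ± 0.32).

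**Figure D3:**
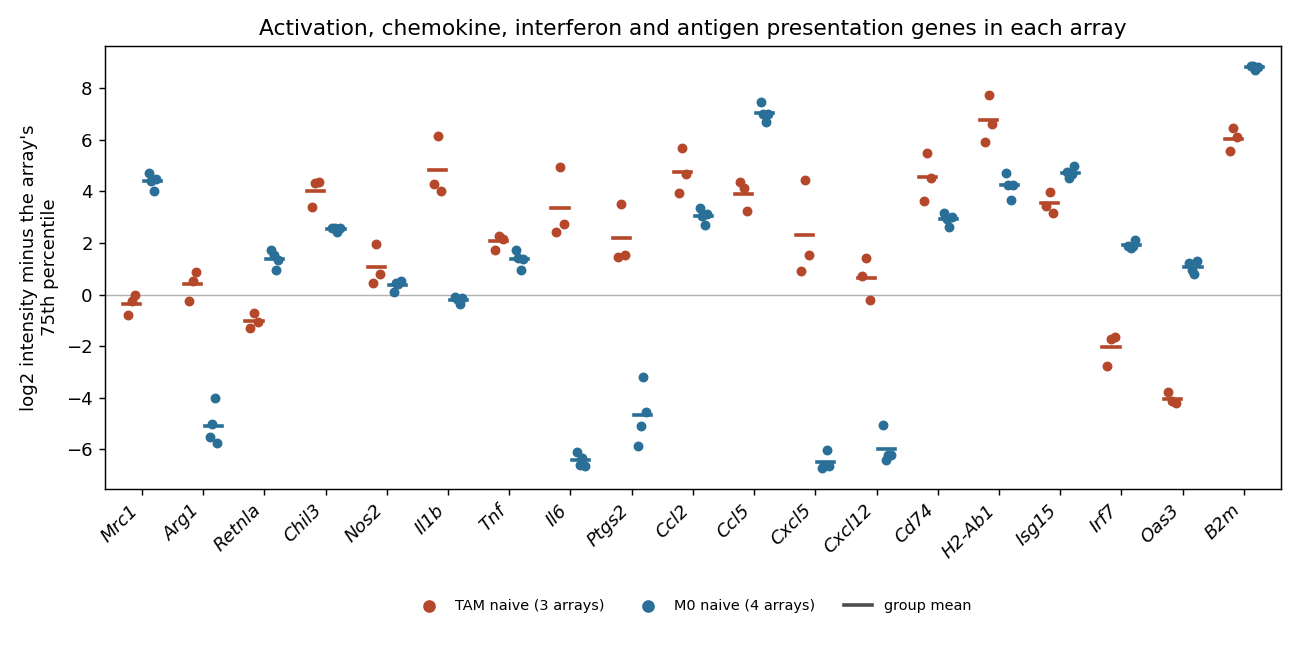
Log2 level minus the array's 75th percentile (vertical axis) of activation, chemokine, interferon and antigen presentation genes in the 3 TAM naive and 4 M0 naive arrays; points are arrays and bars are group means. Il6 lies at 2.42 to 4.93 in TAM and -6.64 to -6.10 in M0, and B2m at 5.57 to 6.44 in TAM and 8.68 to 8.85 in M0.

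Genes of alternative activation, the state induced by IL-4, were split: 11 of 22 were higher and 6 lower, with a median of 0.84. Arg1, arginase, was at -0.23, 0.54 and 0.89 in TAM and not above background in M0, and was at least 28.4-fold higher. Mrc1, the mannose receptor, was at -0.79, -0.27 and -0.01 against 4.72, 4.42, 4.01 and 4.49 (-4.76 ± 0.28), Retnla at -1.30, -0.70 and -1.07 against 1.74, 1.54, 0.95 and 1.34 (-2.41 ± 0.27), and the factor Pparg was lower at -3.90 ± 0.29. Arg1 and Mrc1, often read together, thus moved in opposite directions. The lectin Cd209a was at -0.32, -0.15 and -0.36 and at least 18.9-fold higher.

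Genes of classical activation, the state induced by interferon-gamma and bacterial products, gave 6 higher, 2 lower and 12 not called of 20; their median of 0.34 turned to -0.01 with median centring. Il6 was at 2.42, 4.93 and 2.75 in TAM and -6.10, -6.61, -6.35 and -6.64 in M0, not above background there, and was at least 235-fold higher. Il1b was at 4.29, 6.13 and 4.00 against -0.10, -0.16, -0.38 and -0.13, means of 4.81 ± 1.15 and -0.19 ± 0.12 (SD; adjusted p = 7.98e-05). Ptgs2, which makes prostaglandins, was higher by 6.85 ± 0.70, with 1 of 4 M0 arrays above background. In these 3 genes TAM replicate 3 was the highest array. Nos2 (0.70 ± 0.36) and Tnf (0.69 ± 0.26) were not called; Tnf was called under quantile scaling (adjusted p = 0.00402). Il18 was lower at -2.56 ± 0.25.

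Among 25 chemokines tested, 15 were higher and 5 lower, with a median of 1.69. The neutrophil attractants Cxcl5 and Cxcl3 were not above background in M0 and were at least 112-fold and 63.8-fold higher; Cxcl5 was at 0.91, 4.45 and 1.53 in TAM. Cxcl12, a stromal chemokine that holds cells carrying CXCR4, was at 0.72, 1.41 and -0.22 and at least 35.5-fold higher. Ccl2, which draws monocytes, was at 3.92, 5.67 and 4.68 against 3.37, 3.04, 2.71 and 3.12 (1.69 ± 0.40). Cxcl16 (-4.36 ± 0.39) and Ccl9 (-3.77 ± 0.32) were lower, and Ccl3 (0.45 ± 0.50) and Cxcl9 (1.07 ± 0.47) were not called, though Cxcl9 was called without M0 replicate 3 (adjusted p = 0.0314) and with the mean of its probes (adjusted p = 0.0345).

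Of 18 immune checkpoint and CXCL12 axis genes, 6 were higher and 8 lower. Cd274, the ligand of PD-1, was at 1.51, 2.88 and 1.07 against 4.07, 3.79, 3.26 and 3.88 (-1.93 ± 0.43). Vsir, an inhibitory receptor of myeloid cells, was lower at -5.16 ± 0.34, and Cd200r1 was not above background in TAM and at least 146-fold lower. Ackr3, a scavenger receptor of CXCL12, was at least 55.4-fold higher. Cxcr4 was not called (-1.04 ± 0.38), but passed without TAM replicate 3 (adjusted p = 0.00633), with median centring (adjusted p = 0.0241) and with all groups in 1 fit (adjusted p = 0.0164).

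Markers of other myeloid cells varied by cell type. Of 18 monocyte genes, 5 were higher, 4 lower and 9 not called. Ccr2, the monocyte receptor for CCL2, overlapped at -1.24, -0.04 and -0.96 against 0.03, -0.15, -0.25 and -0.04 (-0.64 ± 0.31), and was called lower without TAM replicate 3 (adjusted p = 0.0248). Plac8 was higher by 5.42 ± 0.42 (1.80 at its other probe), and Fn1, fibronectin, which fibroblasts make in bulk, by 8.48 ± 0.50. Cx3cr1, the fractalkine receptor, was lower at -3.08 ± 0.35. Among 19 dendritic cell genes, 9 were higher and 3 lower. Ccr7, carried by migrating dendritic cells and naive T cells, was at 3.72, 5.70 and 4.02 against -1.26, -0.94, -0.36 and -1.03 (5.38 ± 0.47), Zbtb46 was higher by 1.32 ± 0.27, Flt3 was not called (0.81 ± 0.47, with its 3 probes between -0.04 and 2.54) and the factor Irf8 was lower at -3.50 ± 0.31.

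Neutrophil genes gave 2 higher, 8 lower and 13 not called of 23; without TAM replicate 4, 5 were lower. S100a8 was at 3.42, 5.80 and 2.66 in TAM and 5.26, 5.25, 5.08 and 5.34 in M0, and S100a9, its partner in calprotectin, at 6.04, 8.10 and 5.01 against 7.26, 7.26, 7.08 and 7.27. TAM replicate 3 alone lay above the M0 arrays, and without it both were called lower (adjusted p = 0.00154 and 0.00879). The granule proteins Ltf (-4.09 ± 0.55) and Ngp (-4.92 ± 0.60) were lower, Ngp with 1 of 3 TAM arrays above background, and Retnlg was higher by 2.37 ± 0.35. Mast cell, basophil and eosinophil genes were higher in 8 of 14 and lower in 2. Hdc, which makes histamine, was at 2.77, 4.63 and 1.55 against -3.30, -3.56, -4.19 and -4.10 (6.77 ± 0.64), the protease Mcpt4 was higher by 5.51 ± 0.50, and the eosinophil receptor Ccr3 was lower at -2.27 ± 0.34.

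Cell cycle genes were higher in 15 of 24 and lower in 1, with a median of 1.31. Mki67 was at 4.43, 4.49 and 4.82 in TAM and 3.48, 3.20, 2.70 and 3.22 in M0 (1.43 ± 0.26), and Rrm2, which makes deoxynucleotides, at 5.86, 5.80 and 6.18 against 3.25, 2.96, 2.62 and 2.77 (3.05 ± 0.24). Mcm2, of the replication helicase, was higher by 2.94 ± 0.32, Pcna was lower at -1.36 ± 0.24 and Top2a was not called (0.54 ± 0.39). Hypoxia and glycolysis genes were higher in 21 of 28 and lower in 1, with a median of 1.60. Car9, a carbonic anhydrase induced by low oxygen, was at 3.47, 3.67 and 3.94 against 1.13, 0.66, 0.19 and 0.66 (3.03 ± 0.27). Slc2a1, the glucose transporter, was higher by 1.65 ± 0.22, Ldha by 1.51 ± 0.23 and Adm by 4.43 ± 0.46, the last with 2 of 4 M0 arrays above background.

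Cholesterol and fatty acid synthesis genes were higher in 15 of 28 and lower in 2, with a median of 0.92; with median centring 9 were higher. Scd2, a fatty acid desaturase, was at 5.99, 5.90 and 6.54 against 2.16, 2.00, 1.56 and 2.15 (4.18 ± 0.26), and Scd1 was higher by 4.71 ± 0.43. Srebf2 was lower at its brightest probe (-5.25 ± 0.23) while its other probe was at 0.70, so its direction is uncertain. Fads1 was lower at -1.36 ± 0.36, a call lost without TAM replicate 1 (adjusted p = 0.0721) or 3 (0.0742) or M0 replicate 4 (0.0583). Oxidative phosphorylation genes gave 4 higher and 0 lower of 23, with a median of 0.25 that turned to -0.11 with median centring; Sdhb was at 0.00 and Cox5a at -0.17 ± 0.24, and Cycs was higher by 1.73 ± 0.26.

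Immediate early and heat shock genes, which can be induced by handling and digestion of tissue, were higher in 15 of 22 and lower in 1, with a median of 1.52. Hspa1a, an inducible chaperone, was at 1.59 and 2.79 on TAM replicates 1 and 4 and higher on replicate 3, against -3.21, -3.55, -3.51 and -3.82 in M0 (6.02 ± 0.37). Fosb was higher by 5.59 ± 0.38 and Egr1 by 3.34 ± 0.44, Fos was not called (0.48 ± 0.33) and Atf3 was lower at -1.99 ± 0.27. The part of handling in the cytokine and chemokine differences was not tested.

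The same contrast in post-sepsis mice gave 7489 calls of 29894 features (25.1%), 3521 (11.8%) higher and 3968 (13.3%) lower, with a median difference of -0.36. Of the 4519 features called higher in naive mice, 2526 (55.9%, or 71.7% of the post-sepsis higher calls) were called higher there too, and of the 5735 called lower, 2730 (47.6%, or 68.8%). Opposite calls numbered 21 and 20. The melanocyte median was 6.31 in naive and 6.73 in post-sepsis mice, the fibroblast median 6.63 and 6.76, the endothelial median 3.65 and 3.43 and the macrophage identity median -5.12 and -3.72. The T and NK cell median was 2.30 and 0.14, that of B cells 2.02 and -0.61, that of class II 1.76 and -0.12 and that of the interferon response -2.84 and -0.61. The cell cycle median was 1.31 and -0.06 and that of hypoxia and glycolysis 1.60 and 0.30. For cholesterol and fatty acid synthesis it was 0.92 and -0.37, and for mast cells, basophils and eosinophils 2.33 and 0.09. Cd5l was at -10.06 ± 0.24 and -4.25 ± 0.61, Irf7 at -3.95 ± 0.31 and -0.32 ± 0.53, and Scd2 at 4.18 ± 0.26 and -0.18 ± 0.28. These differences between the contrasts were not tested. The interferon list's median level was 2.24 to 2.86 in naive and 0.45 to 0.76 in post-sepsis M0. In TAM it was -0.17 to 0.60 and -0.70 to 0.83. For T and NK genes the level was -1.21 to 0.00 in naive and -3.08 to -1.77 in post-sepsis TAM. In M0 it was -3.05 to -2.35 and -3.34 to -2.04. For cell cycle genes the level was 1.30 to 2.10 in naive and 3.39 to 4.07 in post-sepsis M0. In TAM it was 2.98 to 3.64 and 3.47 to 4.17.

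**Figure D4:**
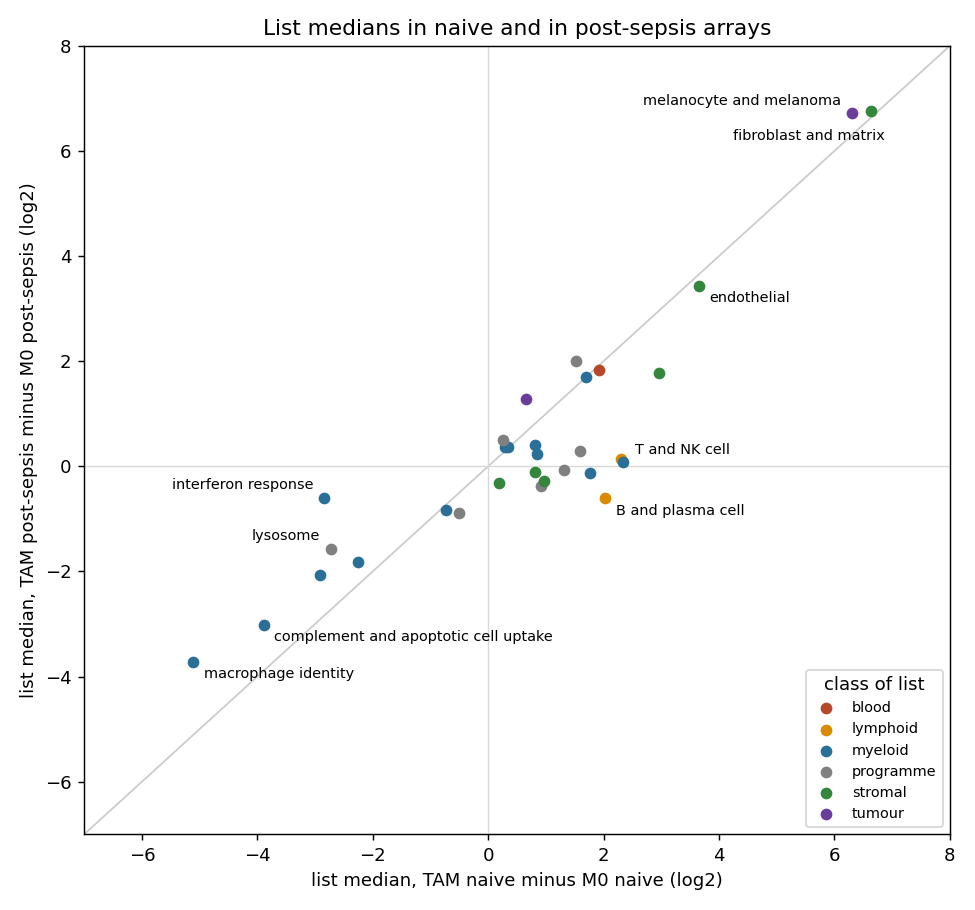
Median log2 difference of each list, TAM minus M0, in naive mice (horizontal axis) and in post-sepsis mice (vertical axis); points are lists coloured by class and the diagonal marks equal values. Melanocyte and fibroblast lists lie near the diagonal at 6.31 and 6.73, and 6.63 and 6.76, while the interferon response list lies above it at -2.84 and -0.61.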

How the data were processed

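The scanner files held spot intensity values deposited by the authors, 1 array per file, extracted with Agilent Feature Extraction 10.7.3.1 with mm9 probe annotation per the file headers, and with version 12.5 per the submitters' processing notes; the processed intensity was already background-subtracted and detrended per the file headers. The deposited value table was not used here, because its columns match other samples' files. From these files, control spots were dropped (59305 spots kept, 55681 probes), spots of a probe averaged, log2 taken and each array's 75th percentile subtracted. A probe stayed in when 3 or more arrays of either group flagged it well above background, and a symbol was given by its brightest probe. Names came from RefSeq for GRCm38.p6: 27737 probes by accession, 3349 by symbol, 313 by synonym, 1313 by the file's own name, and 22969 without a symbol.

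Each contrast was fitted on its own arrays with limma 3.58.1 in R 4.3.3, two-sided, with Benjamini-Hochberg adjustment over all features. The code was tested on simulated data. Recovery was required at the largest simulated difference only, a criterion set after a first run failed at the smallest. Small differences can therefore be missed, and a gene not called may still differ. Where a group was above background on no array, the fold is a bound ("at least"): the bright group's mean against the dim group's mean of, per array, the higher of the lowest signal well above background and the probe's own. Named genes were the 15 largest differences in each direction without overlap, ranked by the bound where there was one, the first 3 members of each list, and the called members with the highest and lowest differences, besides genes named for their probes, which were chosen after their values were seen. The members and lists were chosen with earlier results of these data known. Deviations of same-numbered TAM and M0 samples from their group means correlated at r = -0.54, -0.38 and 0.24 for numbers 1, 3 and 4. Differently numbered samples were not set beside them, so whether the numbers pair samples is not known. A few named genes are not reported here. Alternatives changed background correction, scaling, filter, probe rule, blocks, weights and arrays.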

Additional observations from a re-analysis of the deposited data

Results flagged for a closer look

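Among 184 named genes, 14 had 1 of the 4 M0 naive arrays far from the others by Dixon's test, which chance gives in about 1 of 20 groups. M0 replicate 3 was that array for 10 of them. It was high in Tie1 (-6.61, others up to -6.80), Btla (-6.13), Esm1 (-5.05), Rgs5 (-5.11), Atp2a1 (-2.46) and Cfd (-3.84), and low in Tyro3 (-4.81), B2m (8.68), S100a9 (7.08) and Kdr (3.05). Replicate 1 was high in Kit (-2.06) and Cxcl12 (-5.06) and low in Ngp (0.02), and replicate 4 was low in Tyr (-2.33). Tie1, Btla, Esm1, Rgs5 and Cxcl12 were above background on no M0 array, so their M0 values lie below detection. The 75th percentile intensity was 356.9 on M0 replicate 3 and 460.4 to 534.1 on the other M0 arrays. Its part in these flags was not tested.

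In 2 named genes the arrays moved one way in naive and the other way in post-sepsis mice, and the difference was not tested. Retnla, a product of alternatively activated macrophages, was at -2.41 in naive TAM minus M0 and at 3.55 post-sepsis. Ccl2, which draws monocytes, was at 1.69 and -2.21.

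On the array the submitters excluded, TAM naive replicate 2, the medians of 5 lists picked for this check lay above those of every M0 naive array. The melanocyte list was at 0.79 (M0 up to -3.10), the fibroblast list at 1.47 (up to -4.13), the erythroid list at -0.14 (up to -2.88), the T and NK cell list at -0.48 (up to -2.35) and the B cell list at -0.92 (up to -1.43). Other lists lay below every M0 array there, among them macrophage identity (-1.05, M0 from 5.14), lysosome (-0.13, from 5.55), oxidative phosphorylation (2.55, from 4.40), cell cycle (-0.48, from 1.30), cholesterol and fatty acid synthesis (-1.01, from 0.28) and hypoxia and glycolysis (1.71, from 2.40). On that array 42.4% of probes were well above background. The lowest level well above background there was -1.56, against -4.59 to -4.36 on the M0 arrays. Lists not picked also lay above every M0 array, among them keratinocyte (0.32, M0 up to -1.94), skeletal muscle (-0.36, up to -2.61) and adipocyte (-1.04, up to -2.67). The part of the raised floor in these medians was not tested.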

How the results depend on the processing

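Of 165 named genes called, 132 kept the call under every alternative fit, and all 165 kept their sign under every fit and within every slide. The slides hold the same arrays that gave the calls. Of all 10254 features called, 10253, 10254 and 10242 kept their sign within slides 1, 2 and 3, so the named genes do not stand out in this. With the replicate number as a block, 5375 features were called in naive mice (2396 higher, 2979 lower), and 4681 in post-sepsis mice (2208 lower). That fit kept 52.3% of the main naive calls, and whether the numbers pair samples is not known. Calls lost in it included those of Ccl2, Cd274, Isg15, Cd3e, Zbtb46 and Pcna. With TAM naive replicate 2 added, 5302 were called (2491 higher, 2811 lower). Leaving out each array in turn gave 7732 to 13652 calls, 3368 to 7282 of them higher and 4337 to 6370 lower, the highest without M0 replicate 3. The post-sepsis count of lower calls was 2500 with median centring and 8281 of 13240 calls with all groups in 1 fit; the cause was not tested. With TAM naive replicate 2 added, 2 cell cycle genes were called higher (15 without it), 3 cholesterol and fatty acid genes (15) and 2 class II genes (6). Signals near background and the number of arrays limit the sizes of low genes.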
